A study of Homo sapiens with 4 samples.

Results

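Kinesins are microtubule motors that turn ATP hydrolysis into movement or into the shortening of microtubules. Most walk toward the plus ends of microtubules, which in an interphase cell point to the cell surface. One branch of the family builds and divides the mitotic spindle, and its genes are mostly transcribed in cells that are about to divide. Another branch carries membranes, mRNA and protein complexes as cargo. In natural killer (NK) cells, lytic granules first gather at the microtubule-organizing center and are then brought to the membrane facing the target cell, and kinesin-1 takes part in this last step.

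The kinesin superfamily was taken as every listed gene whose symbol is KIF followed by digits and optional letters, together with KIFC1, KIFC2 and KIFC3. This gave 42 genes of 20323. They were set apart by known role into 15 mitotic kinesins, 15 cargo kinesins and 12 ciliary and other kinesins. CENPE, a kinesin-7 motor without a KIF symbol, was kept with the mitotic partner genes, and KIF28P was not analysed here.

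The libraries came from NK-92, an established human NK cell line that grows with interleukin 2 (IL-2). NK scramble cells (label shscramble) carried a lentiviral hairpin without a target and NK shADAR1 cells a lentiviral hairpin against ADAR1, an enzyme that edits adenosine to inosine in double-stranded RNA. Both groups were kept in the same medium with IL-2 and had 2 libraries each, described as independent biological replicates. The labels number the knockdown libraries 1 and 2, which was read as a replicate number. The same names also exist for a pair of hairpins against ADAR1. By the paper's account the sequenced knockdown cells carried hairpin 2 of that pair, which would hold for both libraries. A line under a hairpin is a population of transduced cells, so fewer cells in a phase and less mRNA per cell cannot be told apart in these bulk measurements.

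The libraries held 37881704 to 39960491 estimated counts, and their log2 levels correlated at 0.981 to 0.989 across tested genes in every pair, within a group or between groups. ADAR, the targeted gene, stood at 655 and 682 CPM (counts scaled to a common library depth) in NK scramble 1 and 2, above the 575 and 482 of NK shADAR1 1 and 2. The log2 fold change of -0.34 (standard error 0.20) did not pass the test across all genes (edgeR, unadjusted p = 0.127). All 10 NK marker genes passed the filter on low counts, with 8 positive log2 fold changes and a median of 0.11. Of 15 markers of other cell types, 6 passed it, all with a positive log2 fold change (median 0.42) and none called, while CD8A, MS4A1 and TYR were listed at 0 in every library. CD3E reached 533 to 778 CPM and TRAC 101 to 140, with CD3D below 1 CPM and CD3G at 2 counts or fewer. These T cell and other markers summed to 638 and 801 CPM in NK scramble and to 719 and 924 in NK shADAR1, and their part in any result below was not tested.

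Promoter sequences are shown first, because most mitotic kinesins hold a cell cycle element that few other kinesins hold. The cell cycle genes homology region (CHR), with the letters TTTGAA or TTCGAA on either strand, is an element bound by the MuvB complexes that repress genes in resting cells and activate them before mitosis. CCAAT boxes, bound by NF-Y, often lie a few helical turns upstream of it. A RefSeq promoter (GRCh38.p14, 250 bases before to 50 after the start of the gene) was found for 34 of the 42 kinesins. The CHR letters occurred in 11 of 15 mitotic kinesins (73.3%), in 1 of 11 cargo kinesins (KIF5B) and in 1 of 8 ciliary and other kinesins (KIF24). Over all 27305 genes with a promoter the share was 19.5%. CCAAT on either strand occurred in 11 of 15 mitotic, 4 of 11 cargo and 3 of 8 ciliary and other kinesins, against 39.7% of all genes. Both elements stood in 10 of 15 mitotic promoters and in 7.85% of all, and in the kinesins 0 matches of one element shared a base with a match of the other. A gene counted when any of its promoters held the letters, and a match is a description of sequence, not a bound site.

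Windows of 30 bases around the CHR letters are shown for mitotic kinesins whose levels are described here, with the matched letters in capitals and each sequence on the plus strand, which is the strand of these genes. KIF15, KIF11 and KIF23 were among the members with the smallest p-values, KIF22 was among the most abundant, and KIF4A and KIF4B are near copies of each other.
KIF15, chr3:44761747-44761776: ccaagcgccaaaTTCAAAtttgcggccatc
KIF11, chr10:92593090-92593119: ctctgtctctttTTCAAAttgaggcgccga
KIF23, chr15:69414282-69414311: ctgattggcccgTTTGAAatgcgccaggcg
KIF22, chr16:29790712-29790741: ggcaccggggaaTTCGAAtgggagaggcgg
KIF4A, chrX:70290058-70290087: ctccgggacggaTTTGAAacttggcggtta
KIF4B, chr5:155013746-155013775: ctctgggagggaTTTGAAacttggcggtta

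TTCAAA is TTTGAA read on the opposite strand, and TTCGAA is its own reverse complement. The first matched base lay 35 bases before the annotated start in KIF15, 28 in KIF11, 55 in KIF23, 27 in KIF22 and 34 in KIF4A, and 3 bases after it in KIF4B. The same stretch in KIF23 also holds attgg, the CCAAT box on the other strand.

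Which kinesins NK-92 cells use was read from FPKM, fragments scaled by transcript length and by library depth, since it alone allows levels of different genes to be compared. Mitotic kinesins were the most abundant class. They took 79.7% and 82.3% of summed kinesin FPKM in the NK scramble libraries, and 79.8% and 83.8% in NK shADAR1. A mean of at least 10 FPKM over the 4 libraries was reached by 11 of 15 mitotic kinesins, by 1 cargo kinesin (KIF5B) and by 1 of the ciliary and other kinesins (KIF21B).

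KIFC1, the minus-end-directed motor that focuses spindle poles, led the order with a mean of 107 FPKM and a range of 94.8 to 115. KIF22, the chromokinesin that pushes chromosome arms outward, followed with 96.1 to 109 FPKM. KIF2C, the centromeric depolymerase that frees wrongly attached microtubules, had 72.3 to 98.2 FPKM. The ranges of these 3 neighbours overlapped each other in turn, and that of KIF2C also overlapped the next gene, KIF21B (55.4 to 79.3 FPKM). The steps between these neighbours were therefore not larger than the spread between libraries.

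KIF21B, a motor of lymphocytes and neurons that restrains microtubule growth, came next with 55.4 to 79.3 FPKM and was the most abundant kinesin outside the mitotic class. KIF2A, a depolymerase at spindle poles, had 48.4 to 55.3 FPKM, and KIF20A, which brings the chromosomal passenger complex to the midzone, had 34.8 to 45.3. Below KIF21B, KIF2A and KIF20A the range of each gene lay wholly above that of the next, so these steps exceeded the spread, although the lowest KIF21B value and the highest KIF2A value were nearly equal. From KIF18B (23.6 to 31.4 FPKM) down to KIF1B (2.13 to 3.05) every neighbouring pair overlapped, and the next clear steps came after KIF1B and after KIF7 (0.779 to 1.28).

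KIF5B, the ubiquitous heavy chain of kinesin-1, was the leading cargo kinesin at a mean of 11.3 FPKM. The heavy chains of its neuronal relatives were barely detected. KIF5A had 2, 0, 0 and 2 counts in NK scramble 1 and 2 and NK shADAR1 1 and 2, and KIF5C had 0, 1, 0 and 0. The kinesin-2 subunits KIF3B and KIF3A, at 8.62 and 4.55 FPKM on average, and the kinesin-3 motors KIF13B, KIF1C and KIF1B, at 2.53 to 3.16 FPKM, made up most of the remainder. A mean under 1 FPKM was found for 8 of 15 cargo kinesins, 7 of 12 ciliary and other kinesins and 2 of 15 mitotic kinesins.

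**Figure D1:**
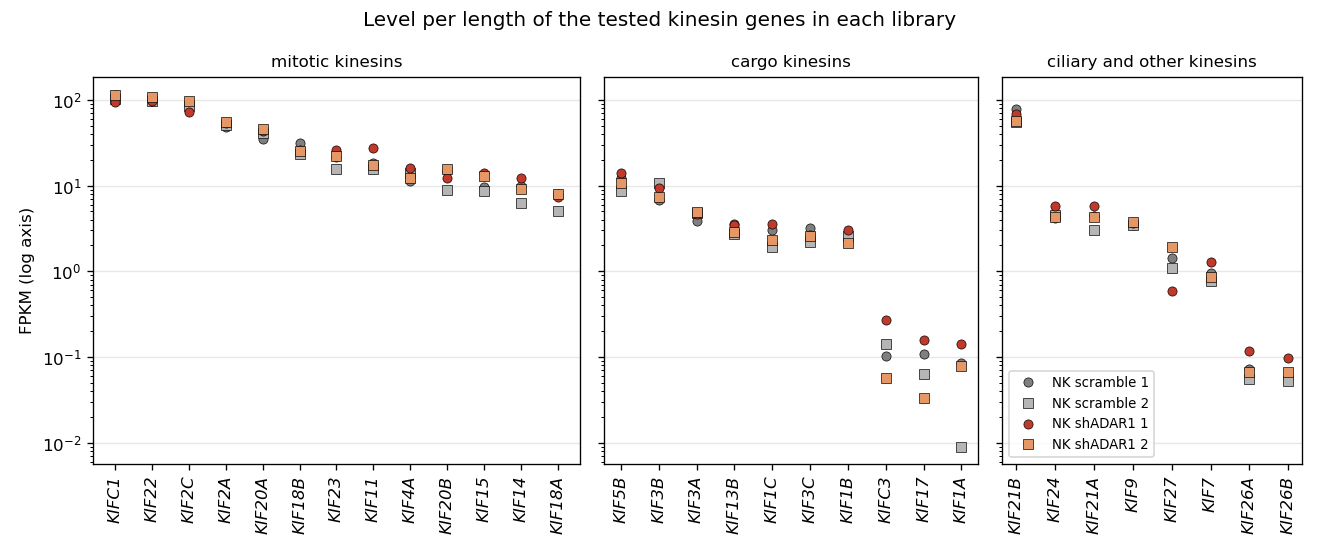
FPKM of the 31 tested kinesins on a log axis, with genes ordered by mean within the mitotic, cargo, and ciliary and other classes and 1 point for each of the 4 libraries. KIFC1, KIF22 and KIF2C have the highest means, between 72.3 and 115 FPKM in every library, KIF21B stands alone above the rest of its class, and KIF5B leads the cargo kinesins.

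In all, 31 kinesins passed the filter on low counts and 11 did not. The 11 were KIF2B and KIF4B of the mitotic class, KIFC2, KIF5A, KIF5C, KIF13A and KIF16B of the cargo class, and KIF6, KIF12, KIF19 and KIF25 of the rest. None of them exceeded 14 counts or 0.11 FPKM in any library. KIF2B, KIF12, KIF19 and KIF25 were listed at 0 in all 4 libraries, where the limit that 0 counts allow is 3 counts, or 0.0751 to 0.0803 CPM.

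KIF4B, which lies on chromosome 5 (155013755 to 155018132 in GRCh38, GENCODE release 29) and arose from KIF4A, had 5, 5, 3 and 2 counts against 1986, 2463, 2657 and 2097 for KIF4A. Of stretches of 50 bases in the KIF4A transcript, 14.1% recur in KIF4B, and how the counting divided such reads is not given in the sources used here. The counts of both are uncertain to that extent. KIF27 shares 29.6% of such stretches with other genes and is uncertain in the same way.

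The comparison of NK shADAR1 with NK scramble asked whether lower ADAR1 came with other levels of these motors. A call needed a fold change of at least 1.5 and an adjusted p under 0.05 in edgeR's quasi-likelihood test over 11810 genes, and 0 of the 31 tested kinesins reached it. Among all tested genes 0% were called as well. DESeq2 called 0 kinesins and 0 genes. The paper reports differentially expressed genes from DESeq2 at the same thresholds, and the reason for the difference was not tested. By its gene set analysis, sets of microtubule-based and cilium movement were enriched in NK shADAR1, and no such analysis was run here. At an unadjusted p under 0.05, edgeR gave 1 kinesin (KIF15, higher) against 2.48% of all genes, of which 1.70% of tested genes were higher and 0.779% lower, and DESeq2 gave 1 kinesin.

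Levels of the groups did not overlap in 6 of 31 kinesins, which were KIF15, KIF23, KIF21A, KIF7, KIF9 and KIF26B. That is a share below the 26.0% of all tested genes whose groups did not overlap. All 6 were higher in NK shADAR1 and 0 were lower, where 13.3% of all genes were higher without overlap and 12.6% lower. The log2 fold change was above 0 in 22 of 31 kinesins (71.0%), against 50.0% of all tested genes. Under the other settings tried, with all 4 libraries, 5 to 8 kinesins had groups without overlap. The median log2 fold change over the tested kinesins was 0.12, and over all genes it was 2.76e-05.

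**Figure D2:**
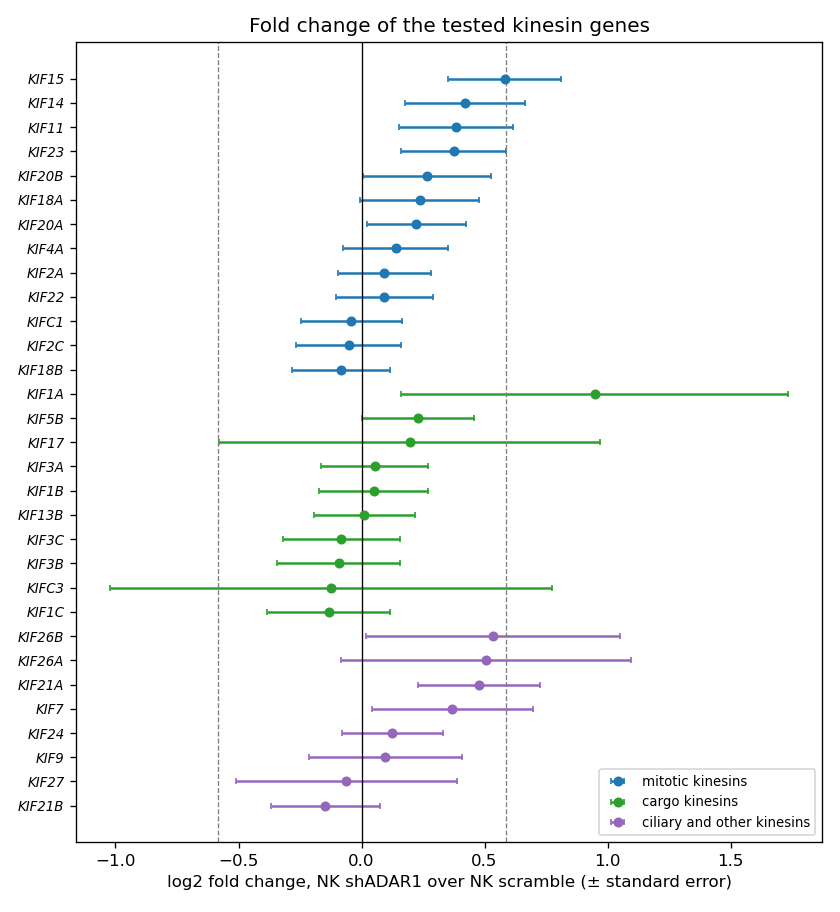
Log2 fold change of NK shADAR1 over NK scramble for the 31 tested kinesins, with bars of 1 standard error and dashed lines at a fold change of 1.5 in either direction. KIF15 at 0.58 lies just inside the dashed line, and KIF1A at 0.95, with a standard error of 0.79, is the only point outside it.

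Among mitotic kinesins, 10 of 13 tested members had a positive log2 fold change and 3 a negative one, with a median of 0.22. Values ran from -0.084 for KIF18B to 0.58 for KIF15. None passed the adjusted test. The median lay between 0.079 and 0.22 when each library was left out in turn, and it was lowest without NK scramble 1.

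KIF15, a kinesin-12 motor that can maintain spindle bipolarity beside KIF11, had 38.9 and 26.3 CPM in the NK scramble libraries, against 50.1 and 47.4 CPM in NK shADAR1. Both NK shADAR1 libraries were above both NK scramble libraries, and the same held for its FPKM of 9.72 and 8.61 against 14.1 and 13.05. The log2 fold change of KIF15 was 0.58 (standard error 0.23, edgeR unadjusted p = 0.029, adjusted p = 1.00). Leaving out each library in turn gave 0.32 to 0.89, with the lowest value without NK scramble 2. No annotated exon of another gene overlaps KIF15 (chromosome 3, 44761717 to 44873376 in GRCh38, GENCODE release 29).

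KIF11, the kinesin-5 motor that pushes spindle poles apart, had 92.0 and 80.0 CPM in the NK scramble libraries, against 134 and 90.7 CPM in NK shADAR1. The high value stood in NK shADAR1 1 alone, and the groups overlapped. Its log2 fold change was 0.38 (standard error 0.23), and it was 0.078 without NK shADAR1 1. KIF14, a midbody motor needed for cytokinesis, had 67.8 and 45.0 CPM against 84.9 and 66.3 (log2 fold change 0.42, standard error 0.24), again with overlap. KIF23, the motor subunit of centralspindlin that marks the division plane, had 73.8 and 56.1 CPM against 88.5 and 79.9 without overlap (log2 fold change 0.37, standard error 0.21).

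These 4 genes, among the 6 kinesins of smallest p and all higher in NK shADAR1, shared their lowest and highest library. Each was lowest in NK scramble 2 and highest in NK shADAR1 1. Outside the mitotic class the same held for KIF5B, KIF1A, KIF21A, KIF7, KIF26A and KIF26B, so this order was not particular to mitotic kinesins. KIF20B and KIF18A, which act at the midzone and on chromosome alignment, were also lowest in NK scramble 2, but highest in NK shADAR1 2. In total 6 of 13 mitotic kinesins (46.2%) were lowest in NK scramble 2, against 23.9% of all genes, and 0 were highest there, against 22.3%. The same library was lowest in 5 of 10 cargo kinesins and in 4 of 8 ciliary and other kinesins. NK shADAR1 2 was highest in 7 of 13 mitotic kinesins (53.8%), against 21.9% of all genes, and lowest in 0, against 21.1%. Without NK scramble 2 the log2 fold change was 0.28 for KIF11, 0.15 for KIF14 and 0.19 for KIF23.

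The most abundant mitotic kinesins showed small differences. KIFC1 had 249 and 244 CPM in the NK scramble libraries, against 207 and 272 CPM in NK shADAR1, a log2 fold change of -0.042 (standard error 0.21). KIF2C had 244 and 235 CPM against 193 and 269 (-0.052, standard error 0.21). In both, the NK shADAR1 libraries enclosed the NK scramble libraries from below and above. For KIFC1 the sign turned with the library left out, from -0.25 without NK shADAR1 2 to 0.14 without NK shADAR1 1.

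KIF22 had 207 and 223 CPM in the NK scramble libraries, against 208 and 250 CPM in NK shADAR1 (0.092, standard error 0.20). KIF2A had 199 and 215 CPM against 210 and 231 (0.092, standard error 0.19). KIF20A had 103 and 127 CPM against 127 and 142 (0.22, standard error 0.20), with 0.079 without NK scramble 1 and 0.37 without NK scramble 2. In these 3 genes NK scramble 1 was lowest and NK shADAR1 2 highest, and the groups overlapped. KIF18B, a plus-end depolymerase that controls astral microtubules, had 119 and 99.8 CPM against 97.9 and 109 (-0.084, standard error 0.20).

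**Figure D3:**
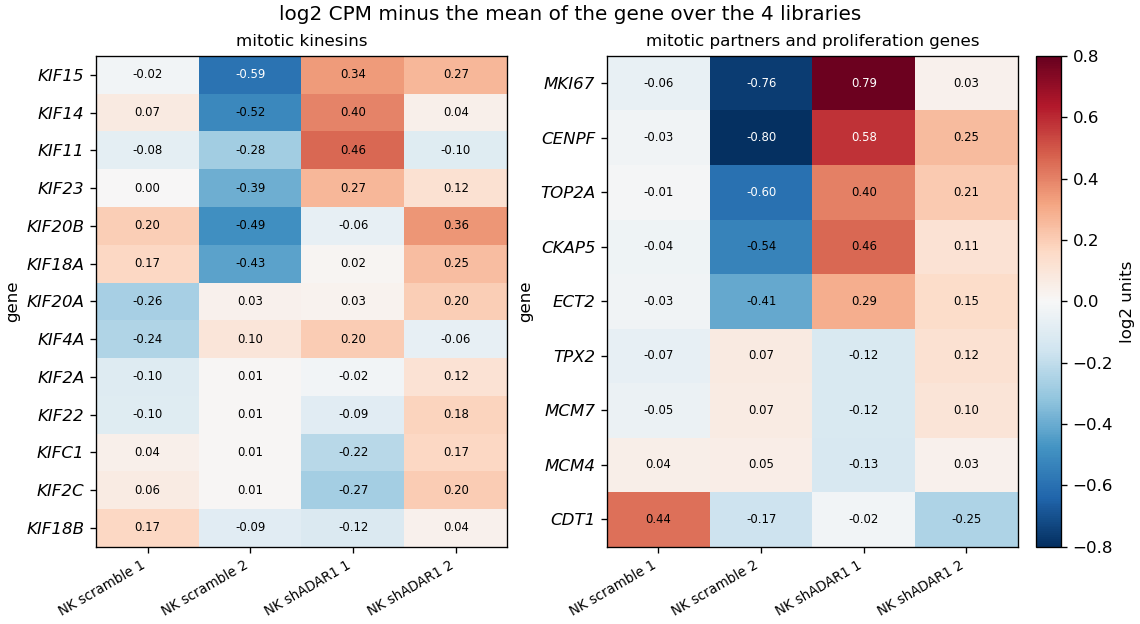
Log2 CPM of each gene in each library minus the mean of that gene over the 4 libraries, for the 13 tested mitotic kinesins and for the named mitotic partner and proliferation genes, with genes ordered by log2 fold change. KIF15, KIF14, KIF11 and KIF23 share the low NK scramble 2 and high NK shADAR1 1 of MKI67, CENPF, TOP2A, CKAP5 and ECT2, while KIFC1 and KIF2C are lowest in NK shADAR1 1. All of these but KIFC1 and KIF2C were named for small p-values and are higher in NK shADAR1, which favours such an order by choice. Kinesins outside the mitotic class with the same order, among them KIF5B and KIF21A, are not drawn.

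The list of 27 mitotic partners holds kinases, kinetochore proteins and spindle factors that work with these motors. All were tested, 20 had a positive and 7 a negative log2 fold change, and the median was 0.061. At an unadjusted p under 0.05 there were 2 of 27 (CENPF and CKAP5, both higher), against 2.48% of all tested genes (1.70% higher), and 0 passed the adjusted test. CENPF, a kinetochore protein, had 256 and 150 CPM in the NK scramble libraries, against 390 and 311 CPM in NK shADAR1 (log2 fold change 0.79, standard error 0.26). CKAP5, a microtubule polymerase, had 231 and 163 CPM against 325 and 256 (0.56, standard error 0.23). ECT2, the RhoA activator that KIF23 and its partner RACGAP1 recruit, had 128 and 98.5 CPM against 160 and 145 (0.43, standard error 0.21). With each library left out, CENPF ran from 0.45 to 1.22, CKAP5 from 0.33 to 0.83 and ECT2 from 0.24 to 0.63, in each case lowest without NK scramble 2 and highest without NK scramble 1.

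In CENPF, CKAP5 and ECT2 NK scramble 2 was lowest and NK shADAR1 1 highest, as in KIF15, KIF14, KIF11 and KIF23. All of these were named for small p-values and were higher in NK shADAR1, which favours such an order by choice. Over the 27 partners, 12 were lowest in NK scramble 2 and 10 in NK shADAR1 1, against 23.9% and 29.1% of all genes. NK shADAR1 1 was highest in 8 and NK shADAR1 2 in 14, against 29.2% and 21.9%. TPX2, which targets AURKA to the spindle, had 396 and 436 CPM against 381 and 452 and a log2 fold change of 0.00093. CENPE, the kinesin-7 that carries chromosomes to the metaphase plate, was named here for being a kinesin, and had 72.0 and 41.4 CPM against 64.5 and 76.4, with the library order of KIF20B.

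Proliferation and S phase markers had no common direction. Of 18 tested, 7 had a positive and 11 a negative log2 fold change, with a median of -0.029. MKI67, the gene of the Ki-67 antigen, had 389 and 240 CPM in the NK scramble libraries, against 699 and 415 CPM in NK shADAR1 (0.83, standard error 0.30). TOP2A, the topoisomerase of dividing cells, had 573 and 381 CPM against 761 and 665 (0.58, standard error 0.24). Both, or 2 of the 18 markers, had an unadjusted p under 0.05, against 2.48% of all tested genes (1.70% higher), and neither passed the adjusted test. Leaving out each library in turn gave 0.40 to 1.21 for MKI67, lowest without NK shADAR1 1, and 0.31 to 0.90 for TOP2A, lowest without NK scramble 2. The highest value of both was without NK scramble 1. Among the replication licensing genes, CDT1 had 153 and 100.4 CPM against 111 and 94.9 (-0.30, standard error 0.24). MCM4 had 764 and 769 CPM against 677 and 757 (-0.095, standard error 0.20). MCM7 had 917 and 994 CPM against 872 and 1021 (-0.014, standard error 0.21), and only in MCM4 did the groups of these 3 genes not overlap.

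Gene length varied along with these values. The 2949 longest tested genes, of 3980 bases or more, had a median log2 deviation of 0.11 in NK shADAR1 1, and of -0.041 to 0.0013 in the other libraries. MKI67 and CENPF, at 11645 and 10290 bases, are among the longest transcripts of these lists, while the tested mitotic kinesins had a median of 3599 bases. With length regressed out of each library, the log2 fold change was 0.55 for KIF15, 0.64 for MKI67 and 0.63 for CENPF, and the median of the mitotic kinesins was 0.19. The part of length in the single values was not tested further.

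Cargo kinesins showed no common direction. Of 10 tested, 6 had a positive and 4 a negative log2 fold change, the median was 0.030, and in 0 of them did the groups separate. Leaving out each library in turn moved the median from -0.11 (without NK shADAR1 1) to 0.24 (without NK shADAR1 2), so its direction rested on single libraries. With gene length regressed out it was -0.089.

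KIF5B had 70.8 and 51.1 CPM in the NK scramble libraries, against 78.5 and 64.5 CPM in NK shADAR1, and the groups overlapped (log2 fold change 0.23, standard error 0.23). Without NK scramble 2 the value was 0.0087. KIF3B had 41.4 and 67.5 CPM against 55.3 and 46.9 (-0.093, standard error 0.25), with both NK shADAR1 libraries between the NK scramble libraries. KIF3A, its partner in the heterotrimeric kinesin-2 motor, had 19.8 and 24.0 CPM against 20.5 and 24.8 (0.053, standard error 0.22). KIF3C, the alternative partner of KIF3A, had 16.8 and 12.1 CPM against 13.3 and 13.9 (-0.082, standard error 0.24).

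Of the kinesin-3 motors, KIF13B had 23.4 and 20.3 CPM in the NK scramble libraries, against 22.0 and 22.1 CPM in NK shADAR1 (0.012, standard error 0.21). KIF1C, which moves vesicles and adhesion components, had 21.1 and 13.8 CPM against 16.8 and 15.1 (-0.13, standard error 0.25). In both, the NK shADAR1 values lay between those of NK scramble. KIF1A, a carrier of synaptic vesicle precursors in neurons, was near the detection limit with 21 and 3 counts against 27 and 18. Its log2 fold change of 0.95 had a standard error of 0.79, and rose to 2.88 without NK scramble 1, which leaves the library with 3 counts as the only control.

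Light chains and cargo adaptors, which link kinesins to granules, mitochondria and lysosomes, were balanced in direction as a list. Of 28 members 27 were tested, 14 with a positive and 13 with a negative log2 fold change, the median was 0.0039, and 0 had an unadjusted p under 0.05 in edgeR. KIFAP3, the accessory subunit that joins KIF3A and KIF3B to cargo, had 26.2 and 22.0 CPM in the NK scramble libraries, against 33.7 and 30.2 CPM in NK shADAR1 without overlap (0.41, standard error 0.21). KIFBP, an inhibitor of several kinesin motors, was lower without overlap but scarce, at 0.902 and 1.02 CPM against 0.508 and 0.589.

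RAB27A, a GTPase required for lytic granule release, had 137 and 180 CPM in the NK scramble libraries, against 175 and 162 CPM in NK shADAR1 (0.091, standard error 0.21). KLC1, a kinesin-1 light chain, had 160 and 143 CPM against 158 and 141 (-0.018, standard error 0.19). In both genes the groups overlapped.

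Of 8 tested ciliary and other kinesins, 6 had a positive and 2 a negative log2 fold change, with a median of 0.25. Groups did not overlap in 4 of them (KIF21A, KIF7, KIF9 and KIF26B), all higher in NK shADAR1, where 26.0% of all tested genes did not overlap and 13.3% were higher without overlap. The NK shADAR1 1 library was the highest in 6 of 8 (75.0%), against 29.2% of all genes. Without that library the median was 0.11, and without NK shADAR1 2 it was 0.38. It was 0.12 in DESeq2, without the filter, and at a mean of at least 50 counts.

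KIF21B, the most counted kinesin, had 712 and 530 CPM in the NK scramble libraries, against 598 and 523 CPM in NK shADAR1. NK scramble 1 was highest and NK shADAR1 1 next, and the other 2 libraries were close together below them. Its log2 fold change was -0.15 (standard error 0.22), and it was 0.077 without NK scramble 1. The gene lies on the minus strand of chromosome 1 (200969390 to 201023700 in GRCh38, GENCODE release 29), and no other annotated exon overlaps it.

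KIF21A, its close relative, had 18.9 and 13.1 CPM in the NK scramble libraries, against 25.0 and 19.5 CPM in NK shADAR1 without overlap (0.48, standard error 0.25, edgeR unadjusted p = 0.082). Its log2 fold change ran from 0.23 without NK scramble 2 to 0.77 without NK scramble 1. The gap between the nearest libraries of the groups, 18.9 against 19.5 CPM, was small beside the spread within each group. KIF24, which restrains cilium assembly at the mother centriole, had 24.4 and 28.5 CPM against 30.2 and 27.4 (0.12, standard error 0.20). KIF9, a motor of motile cilia, had 4.01 and 4.35 CPM against 4.58 and 4.36, where the nearest libraries of the groups were almost equal. KIF9 shares 17.9% of its exonic bases with other genes, mainly the antisense gene KIF9-AS1, and whether the counting used strand is not given in the sources used here.

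KIF7, a regulator of Hedgehog signaling in primary cilia, had 3.98 and 3.49 CPM in the NK scramble libraries, against 5.54 and 4.10 CPM in NK shADAR1. It shares 11.8% of its exonic bases with TICRR on the opposite strand, so its counts are uncertain in the way of KIF9. KIF26B was at 0.726 and 0.636 CPM against 1.14 and 0.830. KIF27, with 107 and 79 counts in the NK scramble libraries against 59 and 112, overlapped. KIF7, KIF26B and KIF27 were named because they separated or were uncertain, after their values were seen.

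Kinesin mRNA was also summed over each class. The mitotic kinesins took 1562 and 1487 CPM in the NK scramble libraries, against 1567 and 1743 CPM in NK shADAR1, a ratio of 1.09 between the means, with NK scramble 1 and NK shADAR1 1 almost equal. The cargo kinesins took 216.7 and 215.1 CPM against 236.5 and 209.4 (ratio 1.03), and the ciliary and other kinesins 767 and 583 against 667 and 583 (ratio 0.926). KIF21B by itself made up 28.0% and 23.2% of kinesin CPM in NK scramble, and 24.2% and 20.6% of it in NK shADAR1. A total of 2 libraries against 2 cannot reach p under 0.05 in an exact permutation test, so no test was run on these sums.

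**Figure D4:**
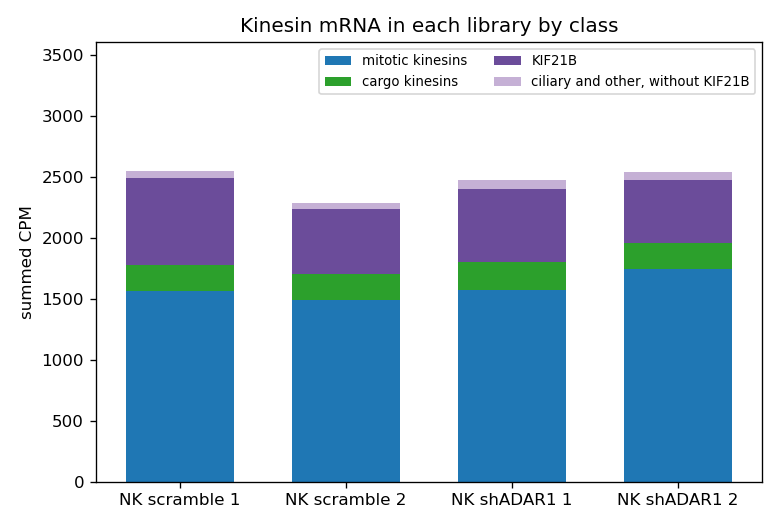
Summed CPM of the kinesins in each of the 4 libraries, stacked as mitotic kinesins, cargo kinesins, KIF21B, and the ciliary and other kinesins without KIF21B. The total runs from 2285 CPM in NK scramble 2 to 2545 in NK scramble 1, and both NK shADAR1 libraries lie between these.

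Tubulins and their regulators form and control the track itself. Of 30 tubulins and microtubule regulators 25 were tested, 16 with a positive and 9 with a negative log2 fold change, a median of 0.040 and 0 genes at an unadjusted p under 0.05 in edgeR. TUBB, a main beta-tubulin, had 3964 and 3778 CPM in the NK scramble libraries, against 3775 and 4130 CPM in NK shADAR1 (0.030, standard error 0.21). TUBA1B, a main alpha-tubulin, had 2999 and 3305 CPM against 3113 and 3596 (0.090, standard error 0.21), and both genes overlapped. MAP7D3, which recruits kinesin-1 to microtubules, had 25.0 and 23.4 CPM in the NK scramble libraries, against 33.1 and 27.5 CPM in NK shADAR1 without overlap (0.32, standard error 0.21). CLASP2, which stabilizes plus ends, had 43.8 and 37.8 CPM against 59.4 and 43.0 with overlap (0.33, standard error 0.22), and ran from 0.079 without NK shADAR1 1 to 0.54 without NK shADAR1 2. TUBB2A was scarce, at 1.53 and 1.07 CPM against 0.941 and 0.616.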

How the data were processed

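Oligo(dT)-selected mRNA of 4 NK-92 libraries was sequenced. The authors deposited estimated counts per gene, not normalized, and FPKM values, scaled by the authors for transcript length and mapped fragments. The submitters' processing notes name fastp 0.18.0. The aligner, counter, strand setting and genome build are not given in the sources used here. Genes are listed by Ensembl identifier, and 20301 of 20323 matched a symbol.

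In R 4.3.3, estimated counts were rounded and filtered (filterByExpr, minimum count 10). Library sizes were TMM-scaled, and edgeR 4.0.16 gave a quasi-likelihood test without covariates, with Benjamini-Hochberg adjustment over 11810 genes. Where no tool stands beside a p-value, it comes from edgeR. A call needed a fold change of at least 1.5 and an adjusted p under 0.05. A standard error is the log2 fold change divided by the square root of its F statistic. CPM uses TMM library sizes. A group's values do not overlap when both libraries of 1 group exceed both of the other.

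The members and all gene lists were chosen with earlier results of these data known, from general knowledge of the genes, and are described by counts and medians without a test. Values in every library are given for the 6 mitotic, 6 cargo and 4 other kinesins of highest mean FPKM, for the 6 kinesins of smallest p, for their paralogs, and for 3 genes of smallest p and 2 of highest CPM in each partner list. Of the genes this rule names, 1 is not reported here.

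Alternatives were DESeq2 1.42.0, scaling by RLE or by the upper quartile, genes kept from 1 count on, a mean of at least 50 counts, the replicate number as a block, unadjusted p-values, gene length (from the ratio of count to FPKM) regressed out by a spline of 4 degrees of freedom, limma 3.58.1 on log2(FPKM + 0.1) and log2(FPKM + 1), and each library left out. Scripts were tested on simulated data. Exon overlaps and shared stretches of 50 bases come from GENCODE release 29, and promoters from RefSeq (GRCh38.p14). At 37881704 to 39960491 counts per library, precision is set by 2 libraries per group, and p-values measure the spread between these samples. The limit of 3 counts covers counting error only.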

Additional observations from a re-analysis of the deposited data

How the results depend on the processing

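Kinesins called stayed at 0 under every alternative run, each library left out included. The number of all genes called, 0 in edgeR (293 at an unadjusted p under 0.05), was 213 for unadjusted p-values with the fold change, and 1 to 47 with a library left out, which leaves a lone library assumed to vary like the other group. It was 2 without NK scramble 2, 1 without NK shADAR1 2, 16 without NK shADAR1 1 and 47 without NK scramble 1. Without NK scramble 1, CENPF (1.22) and MKI67 (1.21) passed the adjusted test of edgeR, while their lowest values with a library left out were 0.45 and 0.40. Kinesins at an unadjusted p under 0.05 in edgeR were 0 without NK shADAR1 1, where 204 of 12040 genes were, and 5 of 32 without NK scramble 1, where 461 of 12131 genes were.

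The replicate numbers come from the titles. Deviations from the group means correlated at 0.308 between same-numbered libraries. No label names a shared culture or batch, and with 2 pairs, whether same-numbered libraries shared one was not tested. With the replicate block, 13 genes and 0 kinesins were called, 4 kinesins (1 without the block) and 681 of 11810 genes (293 without it) had an unadjusted p under 0.05 in edgeR, and TPX2 was at -0.0027.

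Leaving out each library gave a median log2 fold change of 0.079 to 0.22 for mitotic kinesins, -0.044 to 0.028 for adaptors, 0.11 to 0.38 for ciliary and other kinesins, -0.0075 to 0.17 for mitotic partners, -0.083 to 0.032 for proliferation markers and -0.030 to 0.027 for tubulins. The adaptor median was 0.029 with a mean of at least 50 counts and -0.023 with gene length regressed out. The tubulin median was 0.0067 in DESeq2 and 0.0077 without the filter. With length regressed out, KIF3A (-0.0028), KIF13B (-0.084) and TPX2 (-0.026) turned sign, and so did TPX2 in DESeq2 (-0.0039) and without the filter (-0.0033). The cause of these shifts was not tested.

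The sign also turned with a library left out, over ranges of -0.25 to 0.14 for KIFC1, -0.052 to 0.22 for KIF22, -0.31 to 0.17 for KIF2C, -0.21 to 0.048 for KIF18B, -0.41 to 0.30 for KIF3B, -0.094 to 0.19 for KIF3A, -0.094 to 0.12 for KIF13B, -0.41 to 0.20 for KIF1C, -0.31 to 0.17 for KIF3C and -0.35 to 0.077 for KIF21B. Among other genes it turned for RAB27A (-0.096 to 0.30), KLC1 (-0.10 to 0.061), TPX2 (-0.13 to 0.12), CDT1 (-0.58 to 0.033), MCM7 (-0.13 to 0.096), TUBB (-0.039 to 0.095) and TUBA1B (-0.020 to 0.19). Depth set a limit on the 4 kinesins listed at 0, and its effect on the others was not tested.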
